A study of Rattus norvegicus with 24 samples.

Results

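Cardiac fibroblasts from rats of 10-13 weeks were compared with cardiac fibroblasts from rats of 3-4 weeks, both cultured in high glucose. The comparison used 6 of the 24 RNA sequencing libraries of the study, 3 for each age, and the libraries were chosen by their labelled age and glucose level. All 6 came from primary cells kept for 24 hours in DMEM with fetal bovine serum and 33 mM glucose, so high glucose is shared by both groups and is not what was compared. The full study also holds cells of 0-3 days and 20 months, and each age was also cultured in 5.5 mM glucose, called normal glucose here. The labels give no strain, sex, passage or number of animals, so a difference in strain, passage or number of animals cannot be told apart from age. Levels of Y-linked genes, which bear on sex, are given below. Nothing in the labels says that the 3 libraries of a group came from separate animals, and the p-values therefore measure the spread between libraries, which may be technical.

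Cardiac fibroblasts make and remodel the collagen matrix of the heart, and they answer mechanical load, growth factors of the transforming growth factor family and injury. Cultures taken from heart tissue can also hold other heart cells, such as macrophages, which clear debris and present antigen. Cells take up glucose through membrane transporters and break it down by glycolysis, a pathway that hypoxia signalling also raises.

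The 6 libraries held 18874548 to 23360754 counts each, and 15188 to 15510 genes had at least 1 count. Mitochondrial transcripts took 3.05% to 3.55% of the counts. The fibroblast label was checked against 16 marker genes, whose summed level was 58393, 54619 and 58214 CPM (counts scaled to a common library size) at 3-4 weeks and 58517, 56606 and 50685 CPM at 10-13 weeks (exact permutation test, two-sided p = 0.7). Of these, only Col1a2 was listed at 0 in all 6 libraries. Hsp90aa1, Ndufa1 and Myh9 of other lists were also listed at 0 there, and whether such a 0 means absent expression was not tested. The cardiomyocyte markers summed to 93.4 to 166 CPM at 3-4 weeks and 77.7 to 93.6 CPM at 10-13 weeks, most of it Tnnt2, while Myl2, Myl7, Ryr2, Mb and Ckm were at 0. The sum of 5 Y-linked genes was 170, 167 and 169 CPM at 3-4 weeks and 174, 159 and 158 CPM at 10-13 weeks (exact permutation test, two-sided p = 0.4). None of the 4 that were tested was called different, and a difference in sex between the ages was not tested further. Library 1 of 3-4 weeks differed from the 2 others of its age. On the first principal component of all 24 libraries it scored 12, against -5.2 and -1.4 for the other two and 13.3 to 19.5 for the 10-13 weeks libraries, and counts that depend on it are given below with and without it.

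Of 13806 genes tested, 1144 (8.29%) were called different between the ages, at a Benjamini-Hochberg adjusted p under 0.05 in edgeR's quasi-likelihood test. At 10-13 weeks 491 genes (3.56%) were higher and 653 (4.73%) were lower. These shares are the background for the counts of list members below. The lower genes moved further: 358 of them differed by over 2 fold, against 129 of the higher genes. The median log2 change over all tested genes was -0.0054. The 3 values of each age did not overlap for 3253 genes, or 23.6% of those tested. This is the background against which statements on overlap below are to be read. Genes named for size or adjusted p alone had to be without overlap, so for them it adds nothing. Leaving out 1 library at a time gave 941, 1007 and 690 calls without 3-4 weeks libraries 1, 2 and 3, and 833, 697 and 648 without the 10-13 weeks libraries. A fit of the 6 libraries alone called 366 genes, and 387 genes were called in every one of the 6 fits with a library left out.

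**Figure D1:**
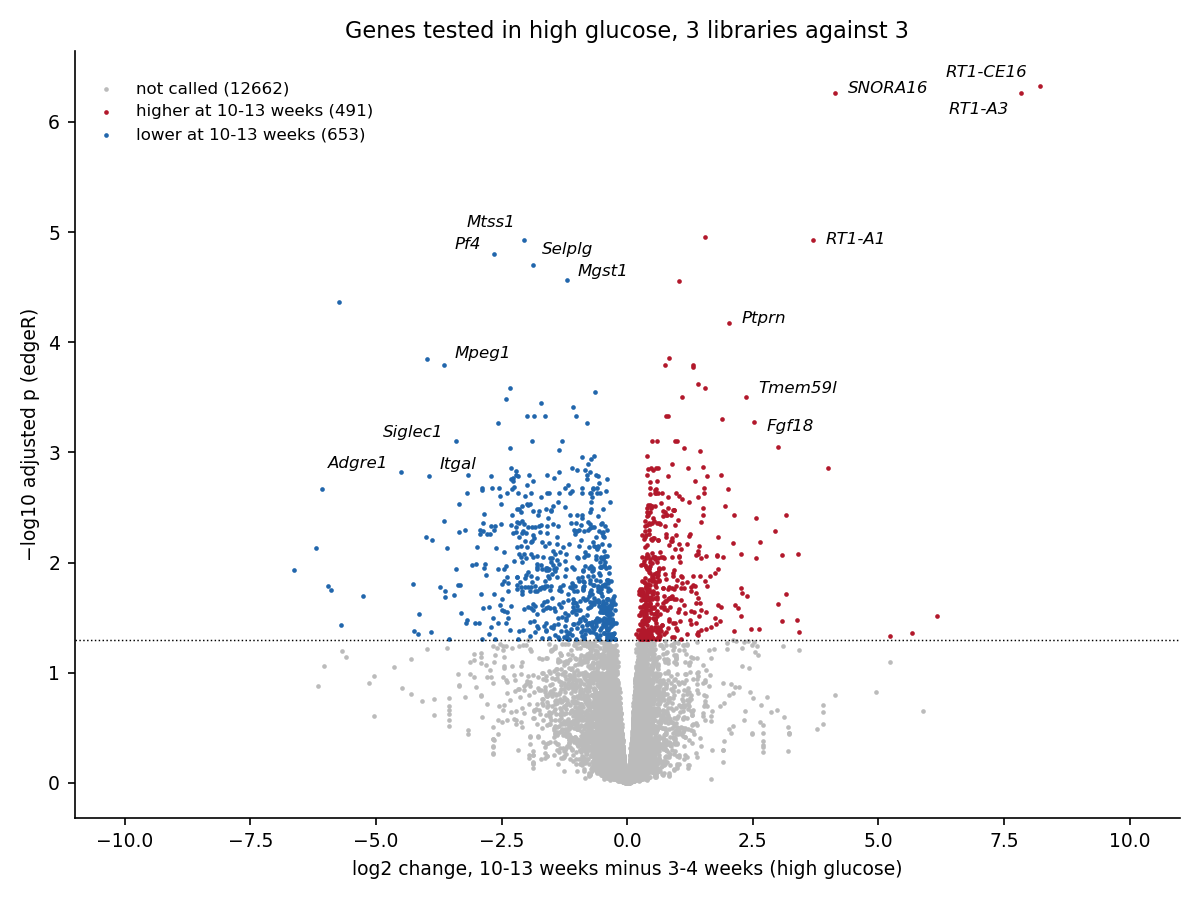
Each point is 1 of the 13806 tested genes, with the log2 change (10-13 weeks minus 3-4 weeks, high glucose) on the x axis and -log10 of the edgeR adjusted p on the y axis. The dotted line marks an adjusted p of 0.05 and called genes are coloured, 491 higher and 653 lower, and the lower side holds more genes with large changes.

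Macrophage markers held more lower genes than any other list. Of 28 tested macrophage markers, 25 fell and none rose, with a median log2 change of -1.99, against 4.73% lower and a median of -0.0054 over all genes. The sum of the 29 markers in the list was 1253, 546 and 492 CPM in 3-4 weeks libraries 1, 2 and 3 and 113, 128 and 224 CPM in 10-13 weeks libraries 1, 2 and 3. The groups did not overlap (exact permutation test, two-sided p = 0.1, the smallest that 3 against 3 allows), and the ratio of the means was 4.93. Library 1 of 3-4 weeks had the highest sum, over 2 times that of the others of its age. Marco was at 0 in all 6 libraries. In bulk libraries such as these, fewer macrophages and less macrophage RNA per cell cannot be told apart.

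Adgre1, the macrophage surface receptor F4/80, measured 7.1, 2.4 and 2.4 CPM at 3-4 weeks and 0.271, 0 and 0.228 CPM at 10-13 weeks. Adgre1 was lower in every older library than in any younger one and fell by 4.50 ± 0.74 on the log2 scale (SE, edgeR adjusted p = 0.00151). Csf1r, the receptor for the growth factor on which macrophages depend, measured 55.4, 30.9 and 18.2 CPM at 3-4 weeks and 5.25, 8.12 and 9.35 CPM at 10-13 weeks. Csf1r lay below the younger libraries in all 3 older ones and fell by 2.20 ± 0.41 on the log2 scale (SE, edgeR adjusted p = 0.00329). Ptprc, which encodes CD45, the phosphatase on the surface of blood-derived cells, measured 22.6, 11.5 and 10.6 CPM at 3-4 weeks and 2.11, 3.65 and 3.24 CPM at 10-13 weeks. Ptprc fell by 2.31 ± 0.37 on the log2 scale (SE, edgeR adjusted p = 0.00138), with no overlap between the groups.

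Mpeg1, which encodes the pore-forming protein perforin-2 of phagocytes, measured 28, 10.2 and 11.3 CPM at 3-4 weeks and 1.14, 0.872 and 1.87 CPM at 10-13 weeks. Mpeg1 was lower in every older library than in any younger one and fell by 3.65 ± 0.46 on the log2 scale (SE, edgeR adjusted p = 0.000159). Trem2, a lipid-sensing receptor of tissue macrophages, measured 12.8, 8.09 and 10.3 CPM at 3-4 weeks and 1.57, 2.13 and 4.06 CPM at 10-13 weeks. Trem2 lay below the younger libraries in all 3 older ones and fell by 1.99 ± 0.34 on the log2 scale (SE, edgeR adjusted p = 0.00196). The level in 3-4 weeks library 1 was the highest of the 6 for each of Adgre1, Csf1r, Ptprc, Mpeg1 and Trem2, but libraries 2 and 3 also lay above every 10-13 weeks library. Siglec1, a sialic acid receptor of resident macrophages, was not in the list. It measured 6.3, 2.8 and 2.81 CPM at 3-4 weeks and 0.217, 0.218 and 0.638 CPM at 10-13 weeks. Siglec1 fell by 3.40 ± 0.52 on the log2 scale (SE, edgeR adjusted p = 0.000791), with no overlap between the groups.

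Lyz2, encoding lysozyme, had means of 356 ± 262 CPM at 3-4 weeks and 68.1 ± 33.7 CPM at 10-13 weeks (SD, n = 3). Lyz2 fell by 2.38 ± 0.57 on the log2 scale (SE, edgeR adjusted p = 0.0136), a call lost without 3-4 weeks library 1 or 10-13 weeks library 1 or 2 (adjusted p 0.053 to 0.083). Spi1, which encodes PU.1, the transcription factor of myeloid cells, fell by 1.92 ± 0.43 on the log2 scale (SE, edgeR adjusted p = 0.00835), a call lost without 3-4 weeks library 1 (adjusted p = 0.0512). Cybb, the catalytic subunit of the phagocyte oxidase, fell by 2.38 ± 0.43 on the log2 scale (SE, edgeR adjusted p = 0.00236). Of the called markers, Cx3cr1, the fractalkine receptor, had overlapping groups and fell by 4.25 ± 1.27 on the log2 scale (SE, edgeR adjusted p = 0.0418), a call lost without 3-4 weeks library 1 or 2 or 10-13 weeks library 1, 2 or 3 (adjusted p 0.0576 to 0.187). Cd163, a haemoglobin scavenger receptor, was not called, at -1.34 ± 1.03 (edgeR adjusted p = 0.478). The number of lower markers was 19, 23 and 25 without 3-4 weeks libraries 1, 2 and 3 in turn, 19, 19 and 23 without 10-13 weeks libraries 1, 2 and 3, and 17 in a fit of the 6 libraries alone.

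Several other called genes outside the marker list are known from leukocytes. They were named for the size or the adjusted p of their change among called genes without overlap between the ages. Their lack of overlap was therefore a condition of naming, and no list of leukocyte genes was tested. Itgal, the alpha chain of the leukocyte integrin LFA-1, measured 16.5, 5.9 and 3.98 CPM at 3-4 weeks and 0.758, 0.654 and 0.319 CPM at 10-13 weeks. Itgal was lower in every older library than in any younger one and fell by 3.94 ± 0.66 on the log2 scale (SE, edgeR adjusted p = 0.00163). Inpp5d, the lipid phosphatase SHIP1 of blood cells, measured 10.5, 5.4 and 3.83 CPM at 3-4 weeks and 0.921, 0.763 and 1.28 CPM at 10-13 weeks. Inpp5d lay below the younger libraries in all 3 older ones and fell by 2.72 ± 0.46 on the log2 scale (SE, edgeR adjusted p = 0.00162). Pf4, a chemokine of platelets and macrophages, measured 5.27, 4.7 and 3.93 CPM at 3-4 weeks and 0.704, 0.654 and 0.821 CPM at 10-13 weeks. Pf4 fell by 2.66 ± 0.28 on the log2 scale (SE, edgeR adjusted p = 1.57e-05), with no overlap between the groups. Selplg, the selectin ligand of leukocytes, measured 7.76, 6.89 and 7.24 CPM at 3-4 weeks and 1.25, 2.23 and 2.46 CPM at 10-13 weeks. Selplg was lower in every older library than in any younger one and fell by 1.87 ± 0.20 on the log2 scale (SE, edgeR adjusted p = 1.97e-05). Stab1, Pik3cg, Parvg and Samsn1 changed by -2.89 ± 0.52, -2.86 ± 0.55, -2.78 ± 0.58 and -2.64 ± 0.53 on the log2 scale (edgeR adjusted p 0.00219 to 0.00549), each without overlap between the ages. Pld4, an endolysosomal nuclease of myeloid cells, measured 9.5, 3.55 and 1.22 CPM at 3-4 weeks and 0.108, 0.817 and 0.41 CPM at 10-13 weeks. Pld4 lay below the younger libraries in all 3 older ones and fell by 3.41 ± 0.79 on the log2 scale (SE, edgeR adjusted p = 0.0114), a call lost without 3-4 weeks library 1 or 10-13 weeks library 1 or 3 (adjusted p 0.0517 to 0.0652).

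**Figure D2:**
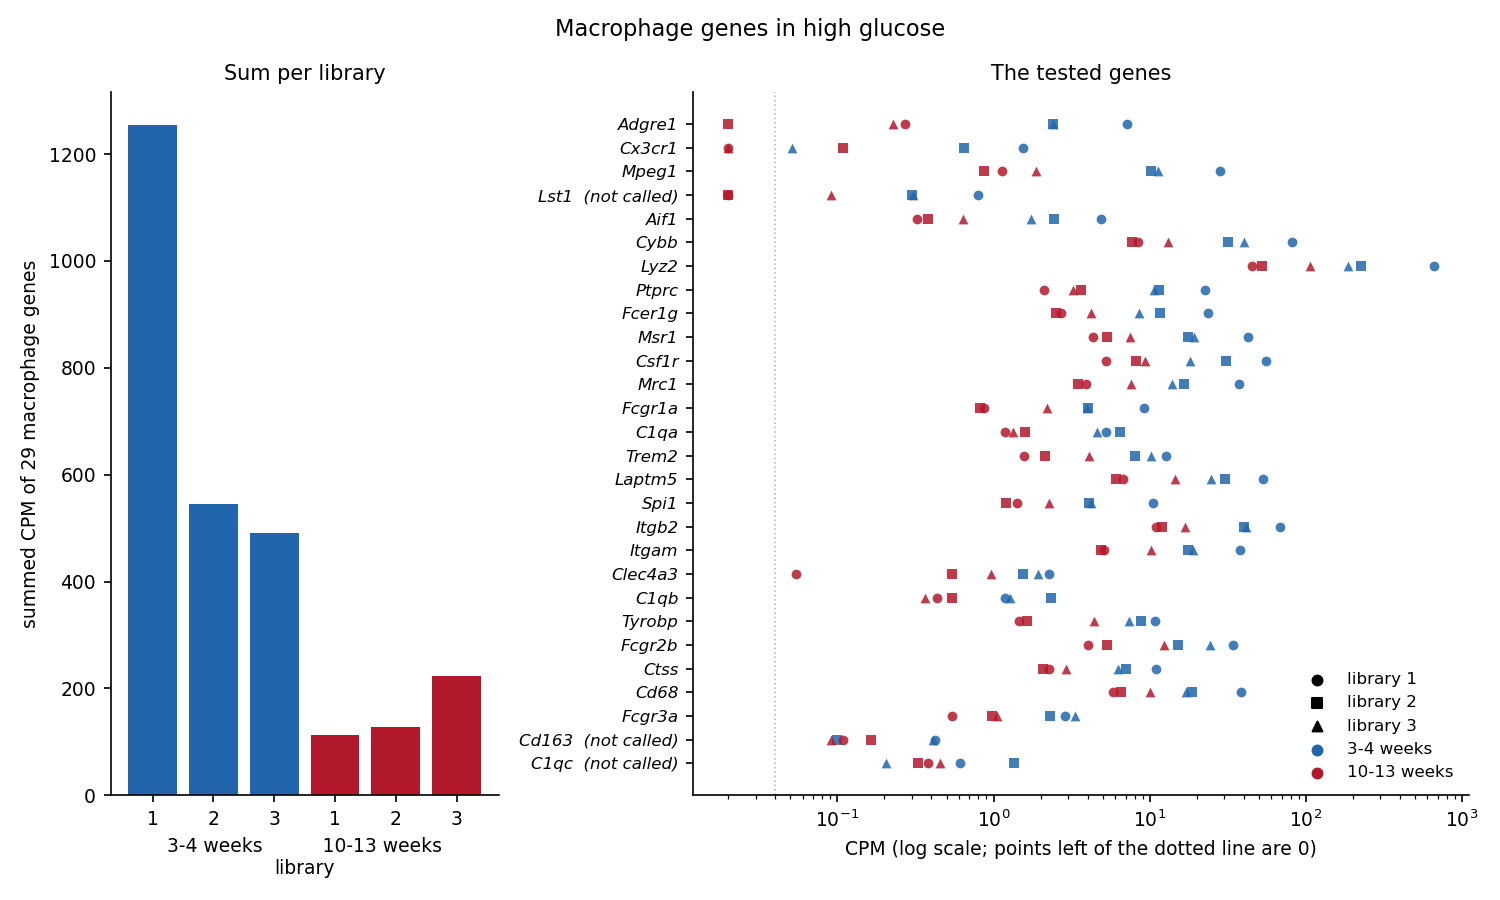
Bars give the summed CPM of the 29 macrophage markers in each of the 6 high glucose libraries, and points the CPM (log axis) of the 28 tested markers in each library, coloured by age with a symbol per library number. The 3 sums of 10-13 weeks, 113 to 224 CPM, lie below the 3 of 3-4 weeks, and 3-4 weeks library 1 has the highest sum.

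Promoter sequences came from RefSeq (build GRCr8, 250 bases before to 50 bases after each gene's start). They were matched to the 13806 tested genes by Ensembl ID, else by symbol or synonym, which gave 10185 promoters. The element bound by PU.1, GAGGAAGT on either strand, was present in 38 of 474 matched promoters of lower genes (8.02%), in 3.18% of those of higher genes, in 2.6% of those of all tested genes and in 2.44% of all 27457 promoters. Of 18 matched promoters of called macrophage markers, 2 held it, and the 160 bases before the start of these genes are shown because they place the element close to the start of genes of that list. The capitals mark the element, here read as its reverse complement.
Ctss (chr2:185775236-185775395, + strand): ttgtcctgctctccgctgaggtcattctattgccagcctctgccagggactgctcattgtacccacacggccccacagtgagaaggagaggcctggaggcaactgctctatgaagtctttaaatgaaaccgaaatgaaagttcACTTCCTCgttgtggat
Fcgr3a (chr13:85782476-85782635, + strand): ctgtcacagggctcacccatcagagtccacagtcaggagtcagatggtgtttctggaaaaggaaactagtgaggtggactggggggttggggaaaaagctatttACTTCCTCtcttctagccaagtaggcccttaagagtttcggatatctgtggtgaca

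Ctss encodes the lysosomal protease cathepsin S, which processes antigen, and Fcgr3a a receptor for immunoglobulin. Ctss fell by 1.74 ± 0.36 on the log2 scale (SE, edgeR adjusted p = 0.00525). Fcgr3a fell by 1.70 ± 0.37 on the log2 scale (SE, edgeR adjusted p = 0.00656). A match of these letters is a description of the sequence and no evidence that the factor was bound.

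Antigen presentation genes moved in both directions. Class II molecules present peptides from outside the cell and are made chiefly by macrophages, dendritic cells and B cells. Of 9 tested genes of the class II list 6 fell and none rose, with a median log2 change of -1.88. The 6 were RT1-Da, Cd74, RT1-DMa, RT1-DMb, RT1-Db1 and Cd86. Cd86 is a costimulatory ligand and not a class II molecule, and its edgeR adjusted p was 0.0374. That call was lost without 3-4 weeks library 1 or 2 or 10-13 weeks library 1, 2 or 3 (adjusted p 0.0633 to 0.149). RT1-Da, a class II alpha chain, measured 2.35, 1.3 and 1.63 CPM at 3-4 weeks and 0.108, 0.327 and 0.137 CPM at 10-13 weeks. RT1-Da fell by 3.19 ± 0.58 on the log2 scale (SE, edgeR adjusted p = 0.00236), with no overlap between the groups. Cd74, the invariant chain that accompanies class II molecules, measured 12.2, 12.4 and 13.8 CPM at 3-4 weeks and 1.35, 2.18 and 4.93 CPM at 10-13 weeks. Cd74 was lower in every older library than in any younger one and fell by 2.16 ± 0.41 on the log2 scale (SE, edgeR adjusted p = 0.00325). The count of lower genes of the class II list was 3, 4 and 6 without 3-4 weeks libraries 1, 2 and 3 in turn. It was 2, 3 and 3 without 10-13 weeks libraries 1, 2 and 3, and 2 in a fit of the 6 libraries alone. These genes fell beside summed macrophage marker levels of 492 to 1253 CPM at 3-4 weeks and 113 to 224 CPM at 10-13 weeks, and the part of these cells in the result was not tested.

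Class I heavy chains present peptides from inside the cell and are encoded on chromosome 20 in the RT1 complex of the rat. Of 14 tested heavy chain genes 5 rose and 1 fell. RT1-CE16 (Rnor_6.0, chromosome 20, 3791407 to 3794027) measured 0.188, 0 and 0.204 CPM at 3-4 weeks and 36.6, 27.5 and 59.1 CPM at 10-13 weeks. RT1-CE16 lay above the younger libraries in all 3 older ones and rose by 8.22 ± 0.61 on the log2 scale (SE, edgeR adjusted p = 4.68e-07). In whole counts this was 8 over the 3 libraries of 3-4 weeks and 2475 over the 3 libraries of 10-13 weeks, a ratio of 321 per unit of library size (95% interval 162 to 743, counting error only). RT1-A3, which overlaps RT1-CE16 on the same strand, had 2 counts at 3-4 weeks and 529 at 10-13 weeks, a ratio of 274 (95% interval 75.5 to 2269, counting error only).

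RT1-A1 (chromosome 20, 5351605 to 5421098) measured 1.41, 2.85 and 3.42 CPM at 3-4 weeks and 25.3, 32.6 and 41.3 CPM at 10-13 weeks. RT1-A1 rose by 3.70 ± 0.37 on the log2 scale (SE, edgeR adjusted p = 1.17e-05), with no overlap between the groups. RT1-CE7 rose by 1.24 ± 0.26 on the log2 scale (SE, edgeR adjusted p = 0.00549). RT1-CE10 rose by 1.80 ± 0.40 on the log2 scale (SE, edgeR adjusted p = 0.00851), a call lost without 10-13 weeks library 3 (adjusted p = 0.0532). RT1-A2, which overlaps RT1-A1 on the same strand, went the other way: it measured 111, 107 and 165 CPM at 3-4 weeks and 53.6, 32.9 and 76.1 CPM at 10-13 weeks. RT1-A2 was lower in every older library than in any younger one and fell by 1.24 ± 0.28 on the log2 scale (SE, edgeR adjusted p = 0.00957), a call lost without 3-4 weeks library 3 (adjusted p = 0.0564). RT1-T24-2, another gene of the RT1 complex, measured 0.47, 0.799 and 2.81 CPM at 3-4 weeks and 9.21, 16.5 and 10.8 CPM at 10-13 weeks. RT1-T24-2 lay above the younger libraries in all 3 older ones and rose by 3.17 ± 0.61 on the log2 scale (SE, edgeR adjusted p = 0.00373). Class I genes of the rat have near-identical sequences and differ between strains in number and allele, and the handling of reads that match several of them is not given in the sources used here, so the values of single class I genes are uncertain. A difference in strain between the age groups cannot be told apart from age.

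Of the class I pathway, Tap1, a subunit of the peptide transporter, rose by 0.43 ± 0.11 on the log2 scale (SE, edgeR adjusted p = 0.0208), a call lost without 3-4 weeks library 1 or 3 or 10-13 weeks library 2 or 3 (adjusted p 0.0556 to 0.0905), and Erap1, a peptidase that trims peptides, fell by 0.50 ± 0.10 on the log2 scale (SE, edgeR adjusted p = 0.00433). The other 10 tested members were not called.

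The complement system tags particles for removal by phagocytes. Of 20 tested complement genes 5 fell and 1 rose, beside 4.73% lower and 3.56% higher over all genes. The median log2 change was -0.44. C1qa, a chain of the C1q recognition protein, measured 5.27, 6.49 and 4.59 CPM at 3-4 weeks and 1.19, 1.58 and 1.32 CPM at 10-13 weeks. C1qa fell by 1.99 ± 0.29 on the log2 scale (SE, edgeR adjusted p = 0.000466), with no overlap between the groups. C5ar1, the receptor for the fragment C5a, measured 26.2, 13.5 and 12.7 CPM at 3-4 weeks and 2.55, 3.54 and 6.48 CPM at 10-13 weeks. C5ar1 was lower in every older library than in any younger one and fell by 2.05 ± 0.41 on the log2 scale (SE, edgeR adjusted p = 0.00443). Cfi, a protease that inactivates complement, measured 0.047, 0.0999 and 0.255 CPM at 3-4 weeks and 0.704, 2.13 and 0.502 CPM at 10-13 weeks and rose by 3.00 ± 0.80 on the log2 scale (SE, edgeR adjusted p = 0.0239), a call lost without 3-4 weeks library 1 or 2 or 10-13 weeks library 2 (adjusted p 0.0694 to 0.156). The number of lower complement genes was 4, 4 and 5 without 3-4 weeks libraries 1, 2 and 3 in turn, 4, 3 and 4 without 10-13 weeks libraries 1, 2 and 3, and 3 in a fit of the 6 libraries alone. Of the lower complement genes, C1qa and C1qb are also counted among the macrophage markers.

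Lysosomal genes encode the acid hydrolases and membrane proteins of the degradative compartment. Of 21 tested, 6 fell and none rose, all 21 had a negative log2 change, and the median was -0.35. Beside this, 4.73% of all genes fell, and 7022 of 13806 had a negative log2 change. Gpnmb, a lysosomal membrane glycoprotein, measured 1184, 838 and 1049 CPM at 3-4 weeks and 573, 626 and 642 CPM at 10-13 weeks. Gpnmb lay below the younger libraries in all 3 older ones and fell by 0.74 ± 0.13 on the log2 scale (SE, edgeR adjusted p = 0.00236). Lipa, the acid lipase that frees cholesterol from its esters, measured 114, 109.7 and 110.1 CPM at 3-4 weeks and 86.3, 87.9 and 78.8 CPM at 10-13 weeks. Lipa fell by 0.40 ± 0.07 on the log2 scale (SE, edgeR adjusted p = 0.00173), with no overlap between the groups. The lower count was 3, 8 and 4 without 3-4 weeks libraries 1, 2 and 3 in turn, 3, 3 and 7 without 10-13 weeks libraries 1, 2 and 3, and 3 in a fit of the 6 libraries alone, beside the macrophage marker sums given above, whose part in these values was not tested. Upper-quartile scaling and DESeq2 each called 9 lower.

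Interferon response genes are induced by antiviral signals. Of 30 tested, 2 fell and none rose in edgeR, all 30 had a negative log2 change, and the median was -0.77. Over all genes 4.73% fell, and 7022 of 13806 had a negative log2 change. DESeq2 called 5 lower. Irf9, the DNA-binding subunit of the interferon-stimulated factor, measured 22.1, 22.5 and 24.3 CPM at 3-4 weeks and 14.1, 14.9 and 14.5 CPM at 10-13 weeks. Irf9 was lower in every older library than in any younger one and fell by 0.66 ± 0.11 on the log2 scale (SE, edgeR adjusted p = 0.00107). Cmpk2, a mitochondrial nucleotide kinase, measured 1.22, 3.7 and 2.86 CPM at 3-4 weeks and 0.921, 1.09 and 1 CPM at 10-13 weeks and fell by 1.36 ± 0.34 on the log2 scale (SE, edgeR adjusted p = 0.0176), a call lost without 3-4 weeks library 2 or 3 or 10-13 weeks library 1 or 3 (adjusted p 0.0594 to 0.0912). The interferon-stimulated element was present in 15 of 21 matched promoters of this list (71.4%), in 5.7% of those of all lower genes and in 3.08% of those of all tested genes. Neither of the 2 promoters of the called members, Irf9 and Cmpk2, held it.

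Immediate early genes are transcribed within minutes of a stimulus, without new protein synthesis. Of 23 tested, 9 rose and none fell, with a median log2 change of 1.08. Dusp1, a phosphatase that switches off mitogen-activated kinases, measured 72.6, 71.3 and 99.1 CPM at 3-4 weeks and 166, 138 and 214 CPM at 10-13 weeks. Dusp1 lay above the younger libraries in all 3 older ones and rose by 1.10 ± 0.20 on the log2 scale (SE, edgeR adjusted p = 0.00265). Nr4a3, an orphan nuclear receptor, measured 7.34, 5.7 and 10.9 CPM at 3-4 weeks and 18.4, 20.4 and 75.2 CPM at 10-13 weeks. Nr4a3 rose by 2.26 ± 0.49 on the log2 scale (SE, edgeR adjusted p = 0.00835), with no overlap between the groups, a call lost without 10-13 weeks library 3 (adjusted p = 0.0801). Library 3 of 10-13 weeks lay far above the rest. Arc and Btg2 were not in this list. Arc, known from its role at synapses, measured 0.517, 0.45 and 0.918 CPM at 3-4 weeks and 2.6, 1.25 and 7.89 CPM at 10-13 weeks. Arc was higher in every older library than in any younger one and rose by 2.65 ± 0.57 on the log2 scale (SE, edgeR adjusted p = 0.00654), a call lost without 10-13 weeks library 3 (adjusted p = 0.0755). Btg2, an antiproliferative factor of the list of senescence and p53 targets, measured 5.55, 4.75 and 8.82 CPM at 3-4 weeks and 36.1, 13.7 and 62.2 CPM at 10-13 weeks. Btg2 lay above the younger libraries in all 3 older ones and rose by 2.55 ± 0.57 on the log2 scale (SE, edgeR adjusted p = 0.00904), a call lost without 10-13 weeks library 3 (adjusted p = 0.0583).

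Fos, a subunit of the AP-1 transcription factor, rose by 2.14 ± 0.63 on the log2 scale (SE, edgeR adjusted p = 0.0414), a call lost without 3-4 weeks library 1, 2 or 3 or 10-13 weeks library 1 or 3 (adjusted p 0.0815 to 0.145). Egr1, a zinc finger factor of the same early response, was not called, at 2.15 ± 0.86 (edgeR adjusted p = 0.136), and its groups overlapped. The count of higher immediate early genes was 6, 3 and 3 without 3-4 weeks libraries 1, 2 and 3 in turn, 5, 11 and 1 without 10-13 weeks libraries 1, 2 and 3, and 3 in a fit of the 6 libraries alone. The count was lowest without 10-13 weeks library 3, which had the highest value of the called members Dusp1, Nr4a3, Ier3, Dusp6, Klf6, Dusp5 and Egr2, while Fos and Zfp36 were highest in 10-13 weeks library 1. Egr2 measured 23.9, 9.09 and 19.3 CPM at 3-4 weeks and 93.3, 27.5 and 129 CPM at 10-13 weeks, and rose by 2.26 ± 0.63 on the log2 scale (SE, edgeR adjusted p = 0.0308), a call lost without 3-4 weeks library 1, 2 or 3 or 10-13 weeks library 1 or 3 (adjusted p 0.0503 to 0.135).

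The cyclic AMP response element, TGACGTCA, was present in 4.77% of the matched promoters of higher genes, 1.27% of those of lower genes, 3.1% of those of all tested genes and 1.88% of all promoters. The AP-1 element, TGACTCA, was present in 5.31%, 4.64%, 3.49% and 4.65% of the same sets. Both were searched on both strands, and none of the motifs searched contains another. Of the 6 matched promoters of called immediate early genes 1 held the cyclic AMP element, that of Dusp1, shown here with the element in capitals.
Dusp1 (chr10:17184693-17184852, + strand): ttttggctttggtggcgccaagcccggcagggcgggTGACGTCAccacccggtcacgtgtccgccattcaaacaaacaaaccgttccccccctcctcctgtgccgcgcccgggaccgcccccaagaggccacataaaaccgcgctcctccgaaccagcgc

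Targets of YAP and of serum response factor report on cytoskeletal tension. Of 16 tested, 8 rose and none fell, with a median log2 change of 0.37. Cyr61, a matricellular protein secreted on stretch, measured 637, 511 and 525 CPM at 3-4 weeks and 1426, 1048 and 1696 CPM at 10-13 weeks. Cyr61 rose by 1.32 ± 0.17 on the log2 scale (SE, edgeR adjusted p = 0.000159), with no overlap between the groups. Ankrd1, a stretch-responsive cofactor known from heart muscle, measured 257, 289 and 224 CPM at 3-4 weeks and 441, 467 and 775 CPM at 10-13 weeks. Ankrd1 was higher in every older library than in any younger one and rose by 1.13 ± 0.18 on the log2 scale (SE, edgeR adjusted p = 0.000916). Srf, the serum response factor itself, measured 87.1, 75.1 and 90.8 CPM at 3-4 weeks and 124, 112 and 155 CPM at 10-13 weeks. Srf lay above the younger libraries in all 3 older ones and rose by 0.63 ± 0.13 on the log2 scale (SE, edgeR adjusted p = 0.00434). Ctgf, a matricellular partner of transforming growth factor beta, measured 5590.3, 4373 and 3989 CPM at 3-4 weeks and 6438, 6229.5 and 7039 CPM at 10-13 weeks. Ctgf rose by 0.50 ± 0.12 on the log2 scale (SE, edgeR adjusted p = 0.0148), with no overlap between the groups, a call lost without 3-4 weeks library 2 or 3 or 10-13 weeks library 3 (adjusted p 0.0523 to 0.0848). The count of higher targets was 6, 6 and 4 without 3-4 weeks libraries 1, 2 and 3 in turn, 7, 6 and 4 without 10-13 weeks libraries 1, 2 and 3, and 3 in a fit of the 6 libraries alone.

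Myofibroblasts are fibroblasts that have acquired contractile fibres. Of 18 tested contractile genes 4 rose (Cnn2, Actn1, Cnn1 and Tpm2) and none fell, and DESeq2 called 6 higher. The call of Cnn1 was lost without 3-4 weeks library 1 or 3 or 10-13 weeks library 2 or 3 (adjusted p 0.0813 to 0.152). That of Tpm2 was lost without 3-4 weeks library 1 or 3 or 10-13 weeks library 2 or 3 (adjusted p 0.0553 to 0.219) and under upper-quartile scaling (adjusted p = 0.0566). Cnn2, an actin-binding calponin, measured 164, 157 and 163 CPM at 3-4 weeks and 207, 214 and 217 CPM at 10-13 weeks. Cnn2 was higher in every older library than in any younger one and rose by 0.40 ± 0.064 on the log2 scale (SE, edgeR adjusted p = 0.00107). Cnn2 overlaps Palm on the opposite strand, and reads of such pairs cannot be told apart without stranded counting. Actn1, which crosslinks actin filaments, measured 1132, 1137 and 899 CPM at 3-4 weeks and 1434, 1700.3 and 1543 CPM at 10-13 weeks. Actn1 lay above the younger libraries in all 3 older ones and rose by 0.56 ± 0.14 on the log2 scale (SE, edgeR adjusted p = 0.0158), a call lost without 3-4 weeks library 3 or 10-13 weeks library 2 (adjusted p 0.0674 to 0.088). Acta2, the smooth muscle actin that defines myofibroblasts, measured 2386, 3179.5 and 1947 CPM at 3-4 weeks and 2756, 3094 and 3473 CPM at 10-13 weeks. Its groups overlapped, and it was not called, at 0.31 ± 0.15 (edgeR adjusted p = 0.199). The higher count of the list was 2, 6 and 1 without 3-4 weeks libraries 1, 2 and 3 in turn, 4, 1 and 2 without 10-13 weeks libraries 1, 2 and 3, and 1 in a fit of the 6 libraries alone.

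The TGF-beta and BMP pathway holds secreted ligands, receptors, extracellular inhibitors and intracellular transducers. Of 38 tested members 10 rose and 4 fell, with a median log2 change of 0.14. Among the ligands, Inhba, the activin A subunit, rose by 1.14 ± 0.30 on the log2 scale (SE, edgeR adjusted p = 0.0244), a call lost without 3-4 weeks library 2 or 3 or 10-13 weeks library 2 or 3 (adjusted p 0.0648 to 0.123). Tgfb1 rose by 0.46 ± 0.14 on the log2 scale (SE, edgeR adjusted p = 0.0431), a call lost without 3-4 weeks library 2 or 3 or 10-13 weeks library 1, 2 or 3 (adjusted p 0.0572 to 0.202) and under upper-quartile scaling (adjusted p = 0.0651). Gdf6, a ligand of the bone morphogenetic protein branch, rose by 0.65 ± 0.18 on the log2 scale (SE, edgeR adjusted p = 0.0295), a call lost without 3-4 weeks library 2 or 3 or 10-13 weeks library 1 or 3 (adjusted p 0.066 to 0.114). Bmp6, another ligand of that branch, measured 107, 97.2 and 116 CPM at 3-4 weeks and 63.5, 48.7 and 78.8 CPM at 10-13 weeks. Bmp6 fell by 0.75 ± 0.18 on the log2 scale (SE, edgeR adjusted p = 0.0143), with no overlap between the groups, a call lost without 3-4 weeks library 3 or 10-13 weeks library 2 (adjusted p 0.0579 to 0.0734). Of the receptors, Tgfbr1 fell by 0.34 ± 0.094 on the log2 scale (SE, edgeR adjusted p = 0.0282), a call lost without 3-4 weeks library 1 or 10-13 weeks library 1, 2 or 3 (adjusted p 0.0616 to 0.143).

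Extracellular inhibitors of the pathway moved in opposite directions. Grem1, gremlin, which binds bone morphogenetic proteins, measured 104, 57.1 and 83.1 CPM at 3-4 weeks and 180.1, 211 and 337 CPM at 10-13 weeks. Grem1 was higher in every older library than in any younger one and rose by 1.57 ± 0.35 on the log2 scale (SE, edgeR adjusted p = 0.0088), a call lost without 10-13 weeks library 3 (adjusted p = 0.0535). Nog, noggin, an inhibitor with the same targets, measured 3.76, 5.3 and 2.86 CPM at 3-4 weeks and 0.379, 1.25 and 0.228 CPM at 10-13 weeks. Nog lay below the younger libraries in all 3 older ones and fell by 2.70 ± 0.48 on the log2 scale (SE, edgeR adjusted p = 0.00209). Chrd, chordin, a further inhibitor, measured 17.9, 15.9 and 15.3 CPM at 3-4 weeks and 12.7, 10.8 and 8.57 CPM at 10-13 weeks. Chrd fell by 0.61 ± 0.14 on the log2 scale (SE, edgeR adjusted p = 0.00935), with no overlap between the groups, a call lost without 10-13 weeks library 3 (adjusted p = 0.0637). Fst, follistatin, which binds activin, rose by 0.97 ± 0.25 on the log2 scale (SE, edgeR adjusted p = 0.0216), a call lost without 3-4 weeks library 2 or 3 or 10-13 weeks library 1 or 3 (adjusted p 0.0616 to 0.0889).

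Among transducers and targets, Smad7, the inhibitory Smad, measured 110.0, 115 and 119 CPM at 3-4 weeks and 162, 179.7 and 141 CPM at 10-13 weeks. Smad7 was higher in every older library than in any younger one and rose by 0.49 ± 0.10 on the log2 scale (SE, edgeR adjusted p = 0.00434). Ltbp1, which holds latent TGF-beta in the matrix and belonged to the list of matrix glycoproteins, measured 162, 167 and 208 CPM at 3-4 weeks and 305, 343 and 289 CPM at 10-13 weeks. Ltbp1 lay above the younger libraries in all 3 older ones and rose by 0.80 ± 0.12 on the log2 scale (SE, edgeR adjusted p = 0.000466). The number of higher members of the pathway was 9, 2 and 4 without 3-4 weeks libraries 1, 2 and 3 in turn, 5, 6 and 1 without 10-13 weeks libraries 1, 2 and 3, and 2 in a fit of the 6 libraries alone, and the number of lower members was 3, 5 and 3 without 3-4 weeks libraries 1, 2 and 3 in turn, 4, 3 and 2 without 10-13 weeks libraries 1, 2 and 3, and 1 in a fit of the 6 libraries alone.

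The main structural products of fibroblasts did not pass the test. Col1a1, the alpha 1 chain of type I collagen, measured 28996, 26974 and 26649.6 CPM at 3-4 weeks and 29067, 28389 and 24094 CPM at 10-13 weeks, and its change was -0.019 ± 0.089 (edgeR adjusted p = 0.937). Col3a1, the chain of type III collagen, changed by 0.0095 ± 0.13 (edgeR adjusted p = 0.981). The groups overlapped for both. Fn1, fibronectin, was at 0.14 ± 0.12 (edgeR adjusted p = 0.535), and Postn, periostin, at -0.34 ± 0.21 (edgeR adjusted p = 0.338).

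Of 18 tested collagens, 2 rose and 1 fell, beside 3.56% higher and 4.73% lower over all genes. Col1a2, listed at 0 in all 6 libraries, was not tested. Col4a1, a basement membrane chain, measured 8877, 8224 and 8811 CPM at 3-4 weeks and 10145, 10054 and 10205 CPM at 10-13 weeks. Col4a1 rose by 0.23 ± 0.06 on the log2 scale (SE, edgeR adjusted p = 0.0194), with no overlap between the groups, a call lost without 3-4 weeks library 2 or 10-13 weeks library 1, 2 or 3 (adjusted p 0.0514 to 0.0773) and under upper-quartile scaling (adjusted p = 0.0588). Col8a2, a network-forming chain, measured 101, 141 and 71.5 CPM at 3-4 weeks and 171, 229.5 and 158 CPM at 10-13 weeks. Col8a2 was higher in every older library than in any younger one and rose by 0.83 ± 0.24 on the log2 scale (SE, edgeR adjusted p = 0.0337), a call lost without 3-4 weeks library 1 or 3 or 10-13 weeks library 1 or 2 (adjusted p 0.0558 to 0.16). Col11a1, a fibrillar chain, measured 399, 291 and 132 CPM at 3-4 weeks and 117, 149 and 100.1 CPM at 10-13 weeks. Col11a1 fell by 1.17 ± 0.35 on the log2 scale (SE, edgeR adjusted p = 0.0432), although the groups overlapped, since 3-4 weeks library 3 lay within the older range, a call lost without 3-4 weeks library 1 or 2 or 10-13 weeks library 1, 2 or 3 (adjusted p 0.053 to 0.187).

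Matricellular glycoproteins, which signal to cells rather than build fibres, included higher genes: 6 of 28 matrix glycoproteins and proteoglycans rose and none fell. Cyr61 and Ctgf, given above among the YAP and serum response targets, are also counted here, and Ctgf in the TGF-beta and BMP list as well. Thbs1, thrombospondin 1, an activator of latent TGF-beta, measured 3147, 2369 and 2767 CPM at 3-4 weeks and 7235, 5417 and 8539 CPM at 10-13 weeks. Thbs1 rose by 1.36 ± 0.23 on the log2 scale (SE, edgeR adjusted p = 0.00183), with no overlap between the groups. Tnc, tenascin C, a protein of injured and developing matrix, measured 1121, 1050.4 and 756 CPM at 3-4 weeks and 1488, 3314 and 2793 CPM at 10-13 weeks. Tnc was higher in every older library than in any younger one and rose by 1.38 ± 0.30 on the log2 scale (SE, edgeR adjusted p = 0.00853). Comp, the cartilage oligomeric matrix protein, rose by 0.97 ± 0.28 on the log2 scale (SE, edgeR adjusted p = 0.0391), a call lost without 3-4 weeks library 2 or 3 or 10-13 weeks library 1 or 3 (adjusted p 0.101 to 0.161). The higher count was 8, 4 and 4 without 3-4 weeks libraries 1, 2 and 3 in turn, 5, 6 and 4 without 10-13 weeks libraries 1, 2 and 3, and 4 in a fit of the 6 libraries alone.

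Of 30 genes of matrix crosslinking and remodelling 3 rose and 3 fell, beside 3.56% higher and 4.73% lower over all genes. Plod2, a lysyl hydroxylase that prepares collagen for crosslinks, measured 1663, 1269.8 and 1474 CPM at 3-4 weeks and 1985, 1799 and 2159 CPM at 10-13 weeks. Plod2 lay above the younger libraries in all 3 older ones and rose by 0.43 ± 0.10 on the log2 scale (SE, edgeR adjusted p = 0.0123), a call lost without 3-4 weeks library 2 or 10-13 weeks library 3 (adjusted p 0.0603 to 0.0681). Adamts1, a proteoglycan-cleaving protease, measured 90.9, 101 and 156 CPM at 3-4 weeks and 225, 169 and 334 CPM at 10-13 weeks. Adamts1 rose by 1.07 ± 0.27 on the log2 scale (SE, edgeR adjusted p = 0.0171), with no overlap between the groups, a call lost without 3-4 weeks library 1 or 2 or 10-13 weeks library 3 (adjusted p 0.0615 to 0.113). Plau, the urokinase plasminogen activator, measured 13.4, 11.4 and 5.97 CPM at 3-4 weeks and 3.95, 3.21 and 2.96 CPM at 10-13 weeks. Plau was lower in every older library than in any younger one and fell by 1.60 ± 0.33 on the log2 scale (SE, edgeR adjusted p = 0.00539). Mmp12, the elastase of macrophages, fell by 1.21 ± 0.36 on the log2 scale (SE, edgeR adjusted p = 0.0418), a call lost without 3-4 weeks library 1, 2 or 3 or 10-13 weeks library 1 or 2 (adjusted p 0.0519 to 0.155), beside the lower macrophage sums. Adamts15, another proteoglycan-cleaving protease, was not in the list. It measured 25.2, 21.3 and 31.5 CPM at 3-4 weeks and 5.74, 5.23 and 3.74 CPM at 10-13 weeks. Adamts15 lay below the younger libraries in all 3 older ones and fell by 2.41 ± 0.33 on the log2 scale (SE, edgeR adjusted p = 0.00033).

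Genes of glucose handling were among the higher genes. Of 26 tested genes of glycolysis and glucose uptake 11 rose and none fell, with a median log2 change of 0.35. Slc2a1, which encodes the glucose transporter GLUT1, measured 77.2, 55.6 and 81.1 CPM at 3-4 weeks and 123, 140.3 and 151 CPM at 10-13 weeks. Slc2a1 rose by 0.96 ± 0.15 on the log2 scale (SE, edgeR adjusted p = 0.000791), with no overlap between the groups. Hk2, the hexokinase that traps glucose in the cell, measured 95.5, 71.4 and 79.5 CPM at 3-4 weeks and 119, 119 and 148 CPM at 10-13 weeks. Hk2 was higher in every older library than in any younger one and rose by 0.65 ± 0.13 on the log2 scale (SE, edgeR adjusted p = 0.00444). Pfkl, a subunit of the rate-setting phosphofructokinase, measured 67.5, 63.9 and 103 CPM at 3-4 weeks and 149, 145 and 152 CPM at 10-13 weeks. Pfkl lay above the younger libraries in all 3 older ones and rose by 0.93 ± 0.18 on the log2 scale (SE, edgeR adjusted p = 0.00334).

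Eno1, enolase, measured 614, 613 and 578 CPM at 3-4 weeks and 761, 851 and 848 CPM at 10-13 weeks. Eno1 rose by 0.45 ± 0.08 on the log2 scale (SE, edgeR adjusted p = 0.00209), with no overlap between the groups. Ldha, which turns pyruvate into lactate, measured 569.9, 481 and 533 CPM at 3-4 weeks and 724, 841 and 856 CPM at 10-13 weeks. Ldha was higher in every older library than in any younger one and rose by 0.61 ± 0.10 on the log2 scale (SE, edgeR adjusted p = 0.0014). Pdk1, a kinase that holds pyruvate back from mitochondria, measured 9.13, 10.6 and 13.3 CPM at 3-4 weeks and 20, 16.7 and 17.4 CPM at 10-13 weeks. Pdk1 lay above the younger libraries in all 3 older ones and rose by 0.71 ± 0.17 on the log2 scale (SE, edgeR adjusted p = 0.0112), a call lost without 3-4 weeks library 1 (adjusted p = 0.0527). Gapdh, Aldoa, Pgk1 and Pgam1, enzymes of the middle steps, rose by 0.40, 0.33, 0.37 and 0.31 on the log2 scale (edgeR adjusted p 0.00456 to 0.0427). The call of Pgk1 was lost without 3-4 weeks library 1 or 10-13 weeks library 2 or 3 (adjusted p 0.0518 to 0.0896). That of Pgam1 was lost without 3-4 weeks library 1 or 3 or 10-13 weeks library 2 or 3 (adjusted p 0.0647 to 0.211) and under upper-quartile scaling (adjusted p = 0.0646). Slc16a3, the lactate exporter, rose by 1.47 ± 0.40 on the log2 scale (SE, edgeR adjusted p = 0.0271), a call lost without 3-4 weeks library 1 or 2 or 10-13 weeks library 2 or 3 (adjusted p 0.0553 to 0.104). The higher count was 7, 10 and 10 without 3-4 weeks libraries 1, 2 and 3 in turn, 12, 8 and 8 without 10-13 weeks libraries 1, 2 and 3, and 4 in a fit of the 6 libraries alone, and 7 of the 11 genes (Aldoa, Eno1, Gapdh, Hk2, Ldha, Pfkl and Slc2a1) were called in every fit with 1 library left out.

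Hypoxia-inducible factors raise many of these genes when oxygen is low. Of 17 tested genes of the hypoxia response list 5 rose and none fell in edgeR, with a median log2 change of 0.12. Slc2a1 and Pdk1 are counted both here and in the glycolysis list. DESeq2 and the fit without 3-4 weeks library 2 each called 1 lower. Ero1l, an oxidase of the endoplasmic reticulum, measured 82.1, 79.9 and 77.5 CPM at 3-4 weeks and 104, 122 and 109 CPM at 10-13 weeks. Ero1l rose by 0.48 ± 0.10 on the log2 scale (SE, edgeR adjusted p = 0.00623), with no overlap between the groups. Bnip3, which marks mitochondria for removal, measured 23.9, 19.9 and 30.9 CPM at 3-4 weeks and 36.1, 37.3 and 48.8 CPM at 10-13 weeks. Bnip3 was higher in every older library than in any younger one and rose by 0.71 ± 0.19 on the log2 scale (SE, edgeR adjusted p = 0.0232), a call lost without 3-4 weeks library 1 or 2 or 10-13 weeks library 3 (adjusted p 0.0664 to 0.127). The count was 2, 3 and 4 without 3-4 weeks libraries 1, 2 and 3 in turn, 5, 5 and 3 without 10-13 weeks libraries 1, 2 and 3, and 2 in a fit of the 6 libraries alone. Cited2, a hypoxia-induced inhibitor of the hypoxia-inducible factors, was not in the list. It measured 67.7, 77.9 and 75.2 CPM at 3-4 weeks and 154, 157 and 277 CPM at 10-13 weeks. Cited2 lay above the younger libraries in all 3 older ones and rose by 1.41 ± 0.19 on the log2 scale (SE, edgeR adjusted p = 0.00024). Oxygen and confluence of the cultures are not given in the labels.

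GCGTG, a form of the core of the hypoxia response element, was searched on either strand, and the form ACGTG was not searched. GCGTG was present in 7 of 10 matched promoters of the called glycolytic genes and in 56.2% of those of all higher genes. It was present in 36.7% of those of lower genes, 49.3% of those of all tested genes and 30.7% of all promoters. With 5 letters this form is frequent in any promoter, and 11 of 23 matched promoters of the whole glycolysis list held it. The promoters of the transporter and of the kinase upstream of mitochondria are shown, with each GCGTG or its reverse complement in capitals.
Slc2a1 (chr5:138002362-138002521, + strand): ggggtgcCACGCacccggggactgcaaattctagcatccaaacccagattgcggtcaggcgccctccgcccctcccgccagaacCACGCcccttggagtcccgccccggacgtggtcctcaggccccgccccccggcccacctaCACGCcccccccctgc
Pdk1 (chr3:77113354-77113513, + strand): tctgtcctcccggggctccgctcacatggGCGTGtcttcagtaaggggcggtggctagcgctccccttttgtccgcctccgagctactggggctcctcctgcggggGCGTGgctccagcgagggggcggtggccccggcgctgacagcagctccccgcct

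Of 8 tested genes known to answer glucose itself 1 fell and none rose, beside 4.73% lower and 3.56% higher over all genes. Klf10, an early gene of TGF-beta and glucose signalling, measured 50.7, 53.9 and 39.1 CPM at 3-4 weeks and 26.7, 33.5 and 27.3 CPM at 10-13 weeks. Klf10 fell by 0.72 ± 0.17 on the log2 scale (SE, edgeR adjusted p = 0.0107), with no overlap between the groups, a call lost without 10-13 weeks library 3 (adjusted p = 0.0519). Txnip, the thioredoxin inhibitor that glucose induces, measured 150.3, 220.4 and 167 CPM at 3-4 weeks and 138, 165 and 131 CPM at 10-13 weeks. Its groups overlapped, and it was not called, at -0.31 ± 0.16 (edgeR adjusted p = 0.24). Of 15 genes of the polyol, hexosamine and pentose phosphate pathways 1 fell, Ogt, which adds N-acetylglucosamine to proteins, by 0.44 ± 0.10 on the log2 scale (SE, edgeR adjusted p = 0.0087), a call lost without 3-4 weeks library 3 or 10-13 weeks library 3 (adjusted p 0.0533 to 0.0548).

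Of 26 tested ligands of the FGF, PDGF, EGF, VEGF and neurotrophic families 2 rose and 1 fell. Over all genes 3.56% were higher and 4.73% lower. Fgf18, a ligand of skeletal and lung development, measured 0.565, 0.749 and 0.561 CPM at 3-4 weeks and 2.17, 4.36 and 4.33 CPM at 10-13 weeks. Fgf18 was higher in every older library than in any younger one and rose by 2.53 ± 0.37 on the log2 scale (SE, edgeR adjusted p = 0.000531). Hgf, hepatocyte growth factor, a ligand of mesenchymal cells for epithelium and endothelium, measured 12.7, 10.5 and 12.5 CPM at 3-4 weeks and 20.5, 23.6 and 21.7 CPM at 10-13 weeks. Hgf lay above the younger libraries in all 3 older ones and rose by 0.88 ± 0.17 on the log2 scale (SE, edgeR adjusted p = 0.00369). Pdgfc, a platelet-derived growth factor, fell by 1.94 ± 0.59 on the log2 scale (SE, edgeR adjusted p = 0.0464), a call lost without 3-4 weeks library 1 or 3 or 10-13 weeks library 1, 2 or 3 (adjusted p 0.0645 to 0.17).

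In the insulin-like growth factor axis 3 of 18 tested genes rose and 1 fell, beside 3.56% higher and 4.73% lower over all genes. Pappa2, a protease that frees insulin-like growth factors from their binding proteins, measured 3.1, 6.59 and 5.25 CPM at 3-4 weeks and 12, 13.1 and 15.6 CPM at 10-13 weeks. Pappa2 rose by 1.45 ± 0.23 on the log2 scale (SE, edgeR adjusted p = 0.000975), with no overlap between the groups. Stc2, stanniocalcin 2, which inhibits such proteases, measured 25, 35 and 28.1 CPM at 3-4 weeks and 89.4, 62.7 and 66.8 CPM at 10-13 weeks. Stc2 was higher in every older library than in any younger one and rose by 1.31 ± 0.32 on the log2 scale (SE, edgeR adjusted p = 0.0161), a call lost without 3-4 weeks library 1 or 3 or 10-13 weeks library 1 (adjusted p 0.0596 to 0.0652). Igf2bp3, an RNA-binding protein of fetal tissues, measured 6.59, 4.25 and 4.69 CPM at 3-4 weeks and 2.11, 2.51 and 1.5 CPM at 10-13 weeks. Igf2bp3 lay below the younger libraries in all 3 older ones and fell by 1.35 ± 0.21 on the log2 scale (SE, edgeR adjusted p = 0.000953). Igf2, the fetal growth factor, was close to 0 at both ages, with 0.141, 0.2 and 0.255 CPM at 3-4 weeks and 0.162, 0.163 and 0.228 CPM at 10-13 weeks. Peg3, an imprinted gene, measured 47.8, 44.2 and 67.7 CPM at 3-4 weeks and 29.7, 27.5 and 24.5 CPM at 10-13 weeks. Peg3 fell by 0.97 ± 0.21 on the log2 scale (SE, edgeR adjusted p = 0.00712), with no overlap between the groups. Of 15 fetal and imprinted growth genes 3 fell (Igf2bp3, Peg3 and Sox11) and none rose in edgeR, while DESeq2 called 1 higher. The call of Sox11 was lost without 3-4 weeks library 1 or 2 or 10-13 weeks library 1 or 3 (adjusted p 0.0501 to 0.0696).

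Of 42 cytokines, chemokines and NF-kappaB targets 3 rose and 3 fell, beside 3.56% higher and 4.73% lower over all genes. Il11, an interleukin made by fibroblasts under TGF-beta, measured 2.92, 0.899 and 1.73 CPM at 3-4 weeks and 4.6, 3.98 and 10.9 CPM at 10-13 weeks. Il11 was higher in every older library than in any younger one and rose by 1.81 ± 0.38 on the log2 scale (SE, edgeR adjusted p = 0.00589), a call lost without 10-13 weeks library 3 (adjusted p = 0.0593). Lif, of the same cytokine family, rose by 1.77 ± 0.51 on the log2 scale (SE, edgeR adjusted p = 0.036), a call lost without 3-4 weeks library 2 or 3 or 10-13 weeks library 1 or 3 (adjusted p 0.104 to 0.154). Il1rn, the interleukin 1 receptor antagonist, measured 11.5, 8.74 and 11.6 CPM at 3-4 weeks and 2.22, 4.25 and 5.15 CPM at 10-13 weeks. Il1rn lay below the younger libraries in all 3 older ones and fell by 1.44 ± 0.32 on the log2 scale (SE, edgeR adjusted p = 0.00834). Osm and Ccl3, both known products of macrophages, also fell. Osm fell by 1.60 ± 0.42 on the log2 scale (SE, edgeR adjusted p = 0.0223), a call lost without 3-4 weeks library 2 or 10-13 weeks library 1 or 2 (adjusted p 0.0568 to 0.0824). Ccl3 fell by 1.66 ± 0.44 on the log2 scale (SE, edgeR adjusted p = 0.0227), a call lost without 3-4 weeks library 1 or 10-13 weeks library 1 or 3 (adjusted p 0.0583 to 0.0956). The part of macrophages in the lower cytokines was not tested.

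Other genes with large or sharply separated changes belonged to no list. These too were named only among called genes without overlap between the ages. SNORA16, a small nucleolar RNA, measured 0.282, 0.25 and 0.306 CPM at 3-4 weeks and 5.69, 6.1 and 3.28 CPM at 10-13 weeks. SNORA16 rose by 4.14 ± 0.34 on the log2 scale (SE, edgeR adjusted p = 5.43e-07), with no overlap between the groups. Ptprn, a protein of secretory vesicles, measured 9.36, 9.74 and 8.52 CPM at 3-4 weeks and 34.6, 41.9 and 36.1 CPM at 10-13 weeks. Ptprn was higher in every older library than in any younger one and rose by 2.03 ± 0.24 on the log2 scale (SE, edgeR adjusted p = 6.73e-05). Mtss1, a membrane-bending protein of the actin cortex, measured 11.9, 10.8 and 14.2 CPM at 3-4 weeks and 2.98, 2.67 and 3.19 CPM at 10-13 weeks. Mtss1 lay below the younger libraries in all 3 older ones and fell by 2.05 ± 0.21 on the log2 scale (SE, edgeR adjusted p = 1.17e-05). F2r, the thrombin receptor, measured 446, 392 and 468 CPM at 3-4 weeks and 713, 699 and 791 CPM at 10-13 weeks. F2r rose by 0.75 ± 0.10 on the log2 scale (SE, edgeR adjusted p = 0.000159), with no overlap between the groups.

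Tmem59l, a membrane protein, rose by 2.36 ± 0.33 on the log2 scale (SE, edgeR adjusted p = 0.000314). Chmp4c, of the membrane-scission machinery, rose by 1.32 ± 0.17 on the log2 scale (SE, edgeR adjusted p = 0.000166). Itga9, an integrin chain that binds tenascin C, measured 54.1, 65.2 and 71.9 CPM at 3-4 weeks and 32.1, 31.7 and 26.7 CPM at 10-13 weeks. Itga9 was lower in every older library than in any younger one and fell by 1.08 ± 0.15 on the log2 scale (SE, edgeR adjusted p = 0.000385). Asap1, which regulates membrane traffic and focal adhesions, measured 143, 152 and 178 CPM at 3-4 weeks and 102, 102 and 98 CPM at 10-13 weeks. Asap1 lay below the younger libraries in all 3 older ones and fell by 0.65 ± 0.089 on the log2 scale (SE, edgeR adjusted p = 0.000285). Itm2a, a membrane protein of chondrocytes and lymphocytes, fell by 1.71 ± 0.24 on the log2 scale (SE, edgeR adjusted p = 0.000357).

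Of 11 tested genes of the mitochondrial genome 2 rose and 2 fell, beside 8.29% called over all genes. Mt-nd4, a subunit of complex I, measured 679, 816 and 721 CPM at 3-4 weeks and 1006, 1023 and 982 CPM at 10-13 weeks. Mt-nd4 rose by 0.44 ± 0.089 on the log2 scale (SE, edgeR adjusted p = 0.00437), with no overlap between the groups. Mt-atp6, a subunit of the ATP synthase, measured 302, 411 and 325 CPM at 3-4 weeks and 189, 227 and 211 CPM at 10-13 weeks. Mt-atp6 was lower in every older library than in any younger one and fell by 0.73 ± 0.12 on the log2 scale (SE, edgeR adjusted p = 0.00115). The called members overlap in pairs (Mt-nd4 with Mt-nd4l, Mt-atp6 with Mt-atp8), so the 4 calls are not independent. The call of Mt-nd4l was lost without 3-4 weeks library 1 or 3 or 10-13 weeks library 1, 2 or 3 (adjusted p 0.0524 to 0.125) and under upper-quartile scaling (adjusted p = 0.0626). None of 22 nuclear respiratory chain genes was called in edgeR or DESeq2. Of 30 tested genes of cholesterol and fatty acid synthesis edgeR called none, DESeq2 called 1 lower, and the fits without 3-4 weeks library 2 and without 10-13 weeks library 1 called 2 and 1 lower.

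Of 26 oxidative stress and NRF2 genes 2 fell, beside 4.73% lower over all genes. Nox4, the hydrogen peroxide-making oxidase of fibroblasts, measured 11.8, 11.5 and 7.09 CPM at 3-4 weeks and 3.85, 4.25 and 2.87 CPM at 10-13 weeks. Nox4 lay below the younger libraries in all 3 older ones and fell by 1.47 ± 0.28 on the log2 scale (SE, edgeR adjusted p = 0.00309). Mgst1, a membrane glutathione transferase, measured 31.1, 25.8 and 30.5 CPM at 3-4 weeks and 14.1, 11.2 and 13 CPM at 10-13 weeks. Mgst1 fell by 1.19 ± 0.13 on the log2 scale (SE, edgeR adjusted p = 2.72e-05), with no overlap between the groups. In the list of unfolded protein and amino acid stress, 2 of 25 genes rose and 2 fell, beside the same 8.29% called over all genes. Ddit3, the stress factor CHOP, measured 89, 64.2 and 92 CPM at 3-4 weeks and 43.1, 42.9 and 46.3 CPM at 10-13 weeks. Ddit3 was lower in every older library than in any younger one and fell by 0.89 ± 0.16 on the log2 scale (SE, edgeR adjusted p = 0.00209). Hspa5, the chaperone BiP, measured 1464, 1129 and 1177 CPM at 3-4 weeks and 1566, 1593 and 1615 CPM at 10-13 weeks. Hspa5 lay above the younger libraries in all 3 older ones and rose by 0.34 ± 0.10 on the log2 scale (SE, edgeR adjusted p = 0.0409), a call lost without 3-4 weeks library 2 or 3 or 10-13 weeks library 1, 2 or 3 (adjusted p 0.076 to 0.157) and under upper-quartile scaling (adjusted p = 0.0701). Ddit3 overlaps Mars on the opposite strand.

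None of 35 cell cycle genes was called in edgeR or DESeq2. The median log2 change of the list was 0.0096, and -0.40 without 3-4 weeks library 1, where again none was called. Mki67, the proliferation marker, measured 52.5, 295 and 165 CPM at 3-4 weeks and 137, 168 and 107 CPM at 10-13 weeks. Library 1 of 3-4 weeks had the lowest value and library 2 of the same age the highest, so the 3-4 weeks range spanned that of 10-13 weeks, and the change was -0.32 ± 0.53 (edgeR adjusted p = 0.791). Cdkn2a, the senescence-linked cell cycle inhibitor, was at -0.35 ± 0.21 (edgeR adjusted p = 0.326).

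Markers of other cells of the heart were summed in the same way. The endothelial sum was 80.9, 66.4 and 82.5 CPM at 3-4 weeks and 126, 98.8 and 105 CPM at 10-13 weeks, and 3 of 10 tested members rose. Flt1, a VEGF receptor, measured 48.1, 34.9 and 50.1 CPM at 3-4 weeks and 89.4, 72.1 and 82 CPM at 10-13 weeks. Flt1 rose by 0.87 ± 0.22 on the log2 scale (SE, edgeR adjusted p = 0.0207), with no overlap between the groups, a call lost without 3-4 weeks library 2 or 10-13 weeks library 1 or 3 (adjusted p 0.0607 to 0.0807). Cldn5, a tight junction protein that overlaps Cdc45 on the opposite strand, had 0 counts at 3-4 weeks and 18 over the 3 libraries at 10-13 weeks, at least 5.88-fold higher against a floor of 3 counts over the group, and its call was lost without any 1 of the 6 libraries (adjusted p 0.0556 to 0.112). Cdh5, the endothelial cadherin, had overlapping groups. The number of higher endothelial markers was 2, 0 and 1 without 3-4 weeks libraries 1, 2 and 3 in turn, 0, 2 and 0 without 10-13 weeks libraries 1, 2 and 3, and 1 in a fit of the 6 libraries alone.

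Schwann cell markers summed to 30.2, 39.1 and 37 CPM at 3-4 weeks and 22.4, 17.2 and 19.5 CPM at 10-13 weeks. Of 7 tested, 2 fell, Mbp, a myelin protein, by 0.69 ± 0.12 on the log2 scale (SE, edgeR adjusted p = 0.00209) and Erbb3, a neuregulin receptor, by 1.97 ± 0.50 on the log2 scale (SE, edgeR adjusted p = 0.0167), a call lost without 3-4 weeks library 3 or 10-13 weeks library 2 or 3 (adjusted p 0.053 to 0.0896). The lymphocyte sum was 3.53 to 6.64 CPM at 3-4 weeks and 0.368 to 0.985 CPM at 10-13 weeks, most of it Cd4, which rat macrophages also carry. Smooth muscle and pericyte markers summed to 4672 to 7118 CPM and 6227 to 7723 CPM, and 1 of 12 rose, Cnn1. For each of these sums the exact permutation p was at least 0.1, the smallest the design allows.

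Among the remaining lists no more than 2 members moved in either direction, beside 3.56% higher and 4.73% lower over all genes. Thy1, a surface glycoprotein of fibroblasts, rose by 0.44 ± 0.13 on the log2 scale (SE, edgeR adjusted p = 0.0425), a call lost without any 1 of the 6 libraries (adjusted p 0.0647 to 0.131) and under upper-quartile scaling (adjusted p = 0.0704), the 1 called gene of 15 tested fibroblast markers. Dkk3 was the 1 called gene of 28 in the Wnt pathway and fell by 0.66 ± 0.18 on the log2 scale (SE, edgeR adjusted p = 0.0236), a call lost without 3-4 weeks library 1 or 3 or 10-13 weeks library 1, 2 or 3 (adjusted p 0.056 to 0.103). In the Notch pathway Notch4 rose by 1.91 ± 0.43 on the log2 scale (SE, edgeR adjusted p = 0.00885) and Notch1 fell by 0.76 ± 0.18 on the log2 scale (SE, edgeR adjusted p = 0.0111), a call lost without 3-4 weeks library 1 or 10-13 weeks library 3 (adjusted p 0.0511 to 0.0681). Notch4 overlaps C4a on the opposite strand. Ptger2, a prostaglandin E receptor, was the 1 called gene of 18 in its list and fell by 2.89 ± 0.51 on the log2 scale (SE, edgeR adjusted p = 0.00209). Among channels and receptors, Gja1, connexin 43, rose by 1.03 ± 0.28 on the log2 scale (SE, edgeR adjusted p = 0.0265), a call lost without 3-4 weeks library 1 or 3 or 10-13 weeks library 2 (adjusted p 0.0656 to 0.143), and Kcnj2, an inward rectifier, fell by 2.94 ± 0.62 on the log2 scale (SE, edgeR adjusted p = 0.00549). Twist1 was the 1 called gene of 31 cardiac and positional transcription factors and rose by 0.55 ± 0.16 on the log2 scale (SE, edgeR adjusted p = 0.0387), a call lost without 3-4 weeks library 1, 2 or 3 or 10-13 weeks library 2 or 3 (adjusted p 0.0514 to 0.245).

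**Figure D3:**
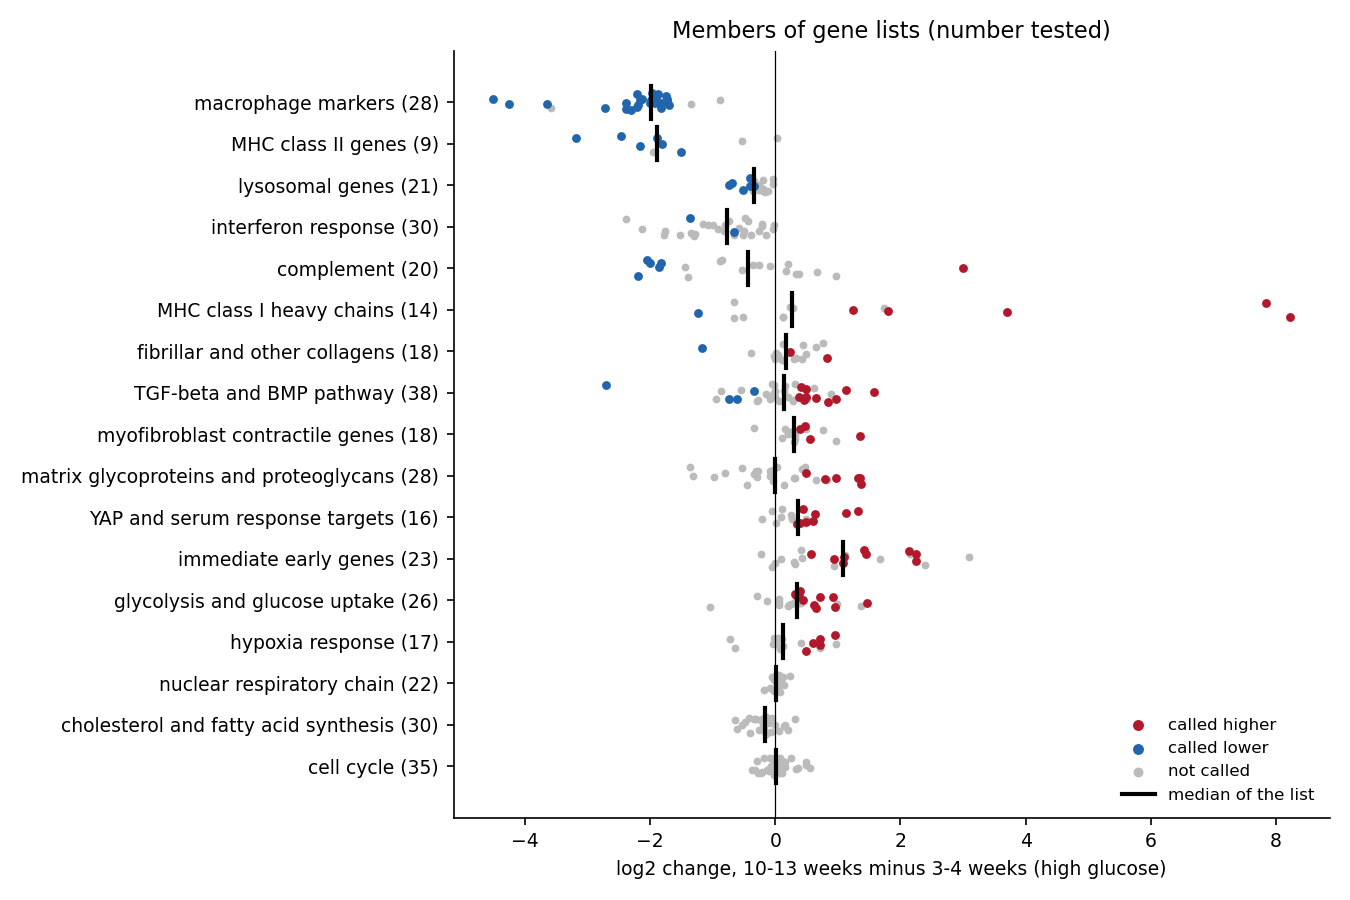
Each point is a tested member of 1 of 17 lists, with its log2 change (10-13 minus 3-4 weeks, high glucose) on the x axis, coloured where called, and a bar at the list's median. Macrophage markers lie furthest to the left, with 25 of 28 called lower, and glycolysis holds 11 of 26 called higher. The row labelled MHC class II genes also holds Cd86, which is not a class II molecule.

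The same 2 ages were set side by side in normal glucose, from other libraries of the study. There 496 genes (3.59%) were called, 153 (1.11%) higher and 343 (2.48%) lower. Of the 1144 genes called in high glucose 432 (37.8%) were also called in normal glucose, all in the same direction, and these were 87.1% of the normal glucose calls. Among all 1144 genes 1138 had the same direction in normal glucose (99.5%), against 76.9% of all tested genes. The genes higher in high glucose had a median log2 change of 0.59 there and 0.39 in normal glucose, and the lower genes -1.12 and -0.81. These genes were chosen for their values in high glucose, so the medians are not on an equal footing. The libraries of the 2 glucose levels also shared deviations within an age, so the 2 comparisons are not independent.

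Macrophage markers gave 25 lower genes of 28 at each glucose level. Adgre1 changed by -4.50 ± 0.74 in high and -4.50 ± 0.78 in normal glucose, and RT1-CE16 by 8.22 ± 0.61 and 8.87 ± 0.64. Glycolysis gave 11 higher genes in high and 7 in normal glucose, and Slc2a1 changed by 0.96 ± 0.15 and 0.63 ± 0.15. Dusp1 changed by 1.10 ± 0.20 and 1.05 ± 0.20.

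A difference of the age effect between glucose levels was tested as an interaction. No gene was called (0 of 13806, 0%), in edgeR and in DESeq2 alike, with 206 and 207 genes at an unadjusted p under 0.05. In that fit no change above was shown to differ between high and normal glucose. High and normal glucose libraries that carry equal numbers deviated together within an age, with correlations of 0.57 to 0.67 at 3-4 weeks and 0.37 to 0.41 at 10-13 weeks, so they were also taken as pairs. With these pairs as a block, 8 genes were called for the interaction, 4 in each direction. Adamts15 was the gene with the smallest adjusted p, its age effect lower in high than in normal glucose by a log2 difference of -1.27 ± 0.18 (edgeR adjusted p = 0.0186, and 0.9999 without the block). The other 7 genes lie outside the rule for named genes and were chosen after their values were seen.

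**Figure D4:**
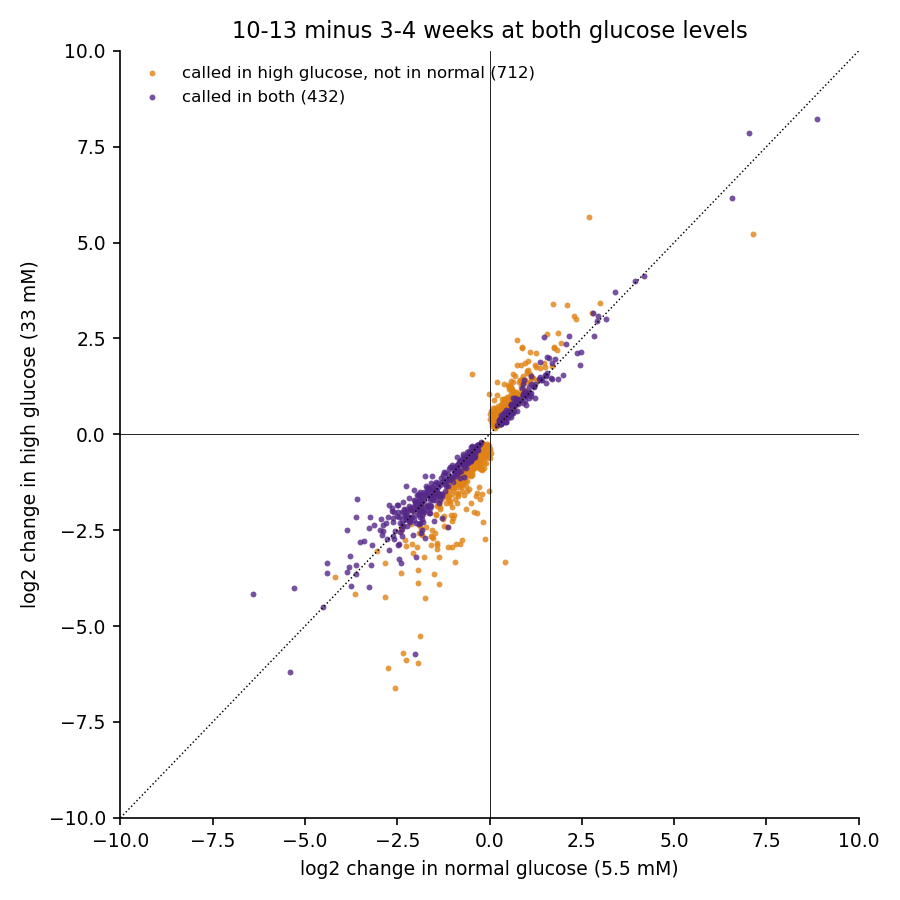
Each point is 1 of the 1144 genes called in high glucose, coloured by whether it was also called in normal glucose, with its log2 change from 3-4 to 10-13 weeks in normal glucose on the x axis and in high glucose on the y axis. The dotted line marks equal changes, and 1138 of the 1144 genes have the same direction at both glucose levels.

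The levels of the leading genes at the other 2 ages in high glucose are given as values, without a test. Macrophage gene Csf1r was at 53.5 ± 4.81 CPM at 0-3 days and 10.6 ± 4.8 CPM at 20 months (SD, n = 3), against 34.8 ± 18.9 and 7.57 ± 2.1 CPM at the ages compared. RT1-CE16 was at 3.91 ± 0.323 CPM at 0-3 days and 61.1 ± 24.2 CPM at 20 months. Slc2a1 was at 111 ± 21.1 CPM at 0-3 days and 75.3 ± 8.45 CPM at 20 months. Cyr61 was at 938 ± 144 CPM at 0-3 days and 990.4 ± 50.9 CPM at 20 months. Igf2bp3 was at 20.6 ± 1.54 CPM at 0-3 days and 2.43 ± 0.548 CPM at 20 months.

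**Figure D5:**
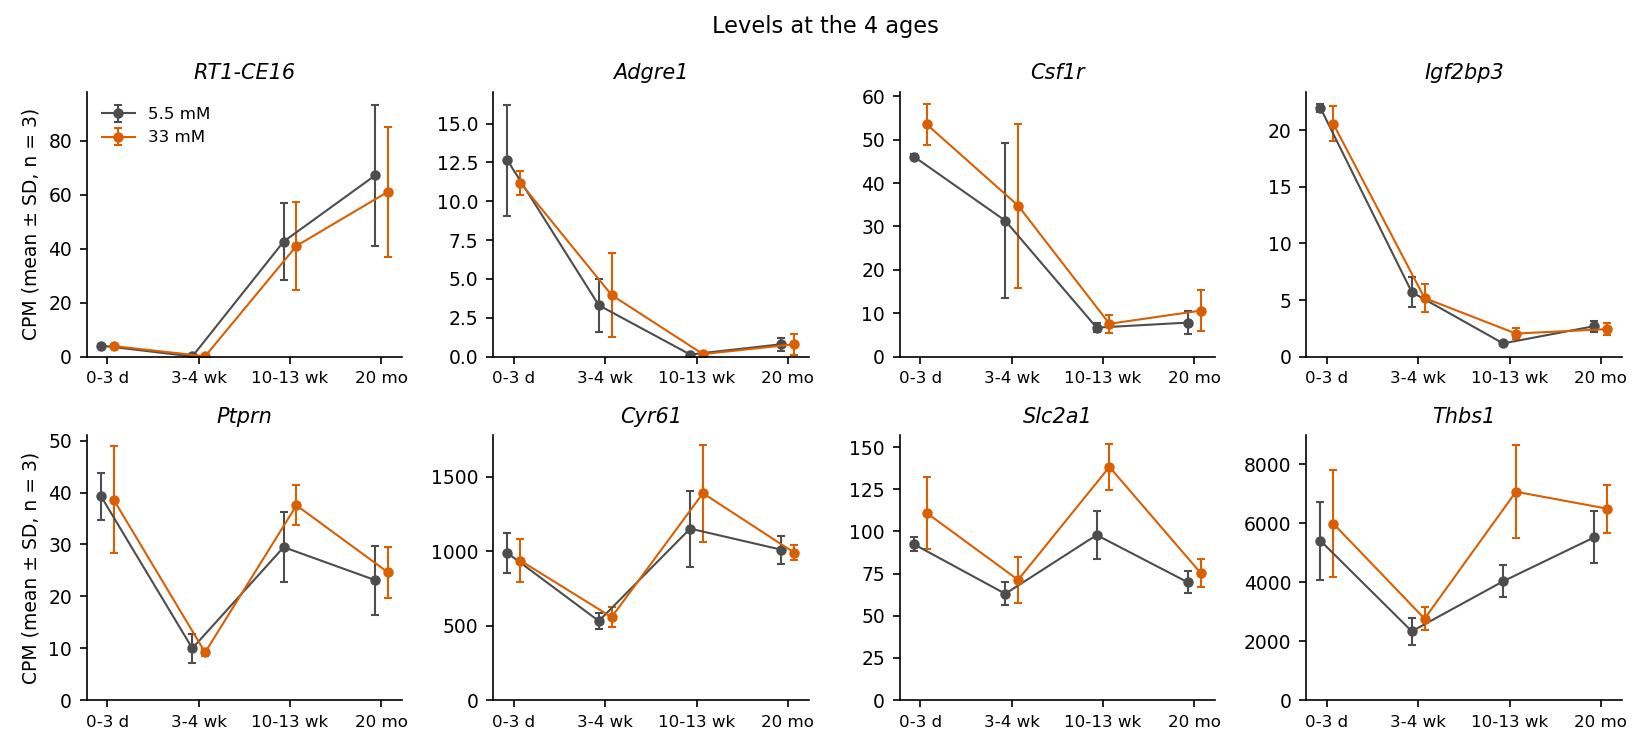
Points are means with bars of 1 SD over 3 libraries, in CPM on a linear axis from 0, at each of the 4 ages in normal (5.5 mM) and high (33 mM) glucose for 8 genes. Adgre1, Csf1r and Igf2bp3 have their highest means at 0-3 days, and RT1-CE16 has its highest at 20 months.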

How the data were processed

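RNA was sequenced from primary rat cardiac fibroblasts, 24 libraries in 8 groups of 3. The authors deposited 1 table with a count and an FPKM value per gene and library for 30957 genes, of which 11647 had no count. The counts the authors deposited are whole and not normalized, and their FPKM values (scaled by gene length and library total, by the authors) entered no test. The build Rnor_6.0 and the tools StringTie 1.3.0, HISAT2 2.0.4 and edgeR are named, without roles, per the submitters' processing notes. Annotation release and strandedness are not given in the sources used here. Gene positions are those of the table, on Rnor_6.0.

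Tests were run in edgeR 4.0.16 under R 4.3.3. A filter on low counts (filterByExpr, 10 per library and 15 in total) left 13806 genes. After TMM scaling, a robust quasi-likelihood model over the 24 libraries gave each of the 8 groups its own mean. Adjusted p are Benjamini-Hochberg values over all tested genes, two-sided and given by edgeR where no tool is named. Changes are log2 values, 10-13 weeks minus 3-4 weeks, with a standard error (SE) equal to the absolute log2 change over the square root of the F statistic. CPM use the TMM-scaled library size, except marker sums, which use plain totals. The test was checked on simulated data.

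The members and lists were chosen with earlier results of these data known. Genes named are, per direction, the 12 with the largest change and the 10 with the smallest adjusted p among called genes with a mean log2 CPM of at least 1 and no overlap, up to 5 called members per list by adjusted p (where none was called, up to 3 by level), and 17 fixed genes. Other list members named were chosen after their values were seen. Lists were described by counts and medians, with no set test. Some called genes are not reported here. Alternatives were other scalings, no filter, a fit without robust weights, DESeq2 1.42.0, a fit of the compared groups alone, replicate blocks, and leaving out each library. Same-numbered libraries of the compared ages did not deviate together in high glucose (correlations -0.061 to 0.128), so numbers do not pair the ages. Same-numbered libraries of the 2 glucose levels within an age did.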

Additional observations from a re-analysis of the deposited data

Results flagged for a closer look

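With the high and normal glucose libraries of each age taken as pairs, the change from 3-4 to 10-13 weeks differed between glucose levels for 8 genes, given as the log2 change in high glucose minus that in normal glucose with its SE. The same genes had an adjusted p of 0.9999 without pairs, and the cause of the difference between the fits was not tested. Adamts15, a matrix protease, differed by -1.27 ± 0.18 (edgeR adjusted p = 0.0186). At 3-4 weeks it measured 25.2, 21.3 and 31.5 CPM in high and 34.5, 23.7 and 31.7 CPM in normal glucose, and at 10-13 weeks 5.74, 5.23 and 3.74 and 16.6, 10.9 and 13.2 CPM, so high glucose was lower in each pair at both ages. Itga6, a laminin-binding integrin chain, differed by 0.86 ± 0.14 (edgeR adjusted p = 0.0314), higher in high glucose in 0 of 3 pairs at 3-4 weeks and in 3 of 3 at 10-13 weeks. Acsl3, which activates fatty acids, differed by -0.49 ± 0.08 (edgeR adjusted p = 0.0314), higher in high glucose in 3 of 3 pairs at 3-4 weeks and in 0 of 3 at 10-13 weeks. Agtr1a, an angiotensin receptor, differed by -0.77 ± 0.13 (edgeR adjusted p = 0.0339). The gene listed as C2 at chr20:4536203-4542947 on Rnor_6.0, a different entry from the C2 of the complement list, differed by -3.46 ± 0.59 (edgeR adjusted p = 0.0339). At 3-4 weeks it measured 0.282, 0.0999 and 14.2 CPM in high and 0.419, 0.26 and 11.5 CPM in normal glucose, and at 10-13 weeks 0.0542, 0 and 0.137 and 0.104, 0.161 and 1.67 CPM, so the libraries numbered 3 lay far above the others at 3-4 weeks. Chst2, a sulfotransferase, differed by 0.52 ± 0.092 (edgeR adjusted p = 0.0394). Clec14a, an endothelial lectin, differed by 0.76 ± 0.14 (edgeR adjusted p = 0.0394). Mef2a, a muscle transcription factor, differed by 0.49 ± 0.089 (edgeR adjusted p = 0.0394).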

How the results depend on the processing

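In high glucose the count of 1144 called genes stayed within 1.5 times under other scalings, no filter, no robust weights, DESeq2 and without both 3-4 weeks libraries numbered 1, at 993 to 1463. A fit of the compared groups alone called 366 genes in high glucose and 141 in normal glucose, against 1144 and 496. Leaving out 1 library at a time gave 648 to 1007 calls in high and 227 to 467 in normal glucose, and 0 for the interaction. With upper-quartile scaling 33.3% of the calls were higher, against 42.9%, and the median of all genes moved to -0.042. Taking the replicate number as a replicate block across ages gave 1332 calls in high and 591 in normal glucose and 0 for the interaction, and pairing glucose levels within an age gave 8 for the interaction. Among named genes called in the fit of all libraries or under the other setting, none reversed its direction. Signs of genes called in neither fit were not counted. Of 1322 results of single named genes under other settings 105 lost the threshold, and of 996 with 1 library left out 211 did. Both totals include named genes not called in the fit of all libraries, which had no call to lose. Of the 105, 54 came from the fit of the compared groups alone and 31 from the fit without both 3-4 weeks libraries numbered 1. Genes with few counts are limited by depth.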
